A study of Danio rerio with 18 samples.

Results

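A set of 9 genes labelled as enveloping layer genes other than keratins was followed across RNA-seq libraries of whole zebrafish embryos at 4 h post-fertilisation. They were evpla, grhl3, znf750, znf185, b3gnt5a, hsd17b14, tmem154, cyp2x6 and add3b, 9 of the 32520 genes counted. They were picked by name, because they had been seen to be low in embryos given guide RNA (gRNA) cocktails, so their level in cocktails against the control is given here as a description without a test. Each of the 9 names matched 1 gene of the count tables.

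The stated aim was to judge ex vivo computational models by how they foresee mRNA depletion in the living embryo. RfxCas13d is an RNA-guided nuclease of the CRISPR family that cleaves mRNA complementary to its gRNA. Embryos received 1 of 8 cocktails (Cocktail 1 to Cocktail 8) of 25 gRNAs, 200 gRNAs in all, at 10 pg per embryo, and are labelled as an RfxCas13d knockdown. The RfxCas13d control is the reference group, and each of the 9 groups had 2 libraries, 18 in all. The labels name no gRNA in the control, no strain or sex, and neither the form in which RfxCas13d was given nor whether the 10 pg is the amount of 1 gRNA or of the mixture. They also do not say whether the replicates came from separate clutches, so the tests measure the spread between these libraries, which may be technical. The genes that the gRNAs target, and whether any of the 9 is among them, do not appear in the sources used here.

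The enveloping layer is the first epithelium of the fish embryo. It is a single sheet of flat cells that covers the blastoderm and holds it tight with keratin filaments, desmosomes and tight junctions, while the deep cells underneath form the embryo proper and the yolk syncytial layer lies between them and the yolk. The layer takes on its fate in the blastula, under transcription factors of the surface epithelium, and it spreads over the yolk in epiboly. Its genes are switched on by the embryo's own genome, whereas oocyte mRNAs are supplied by the mother and cleared over the same hours.

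Gene counts per library ran from 2544027 to 4864939. The share of reads that mapped nowhere was 10.4% ± 0.539 in the controls (SD, n = 2) and 29.7% ± 7.01 in the cocktails (SD, n = 16). The library labelled Cocktail 1 replicate 1 stood apart: of 4411 genes with at least 50 CPM (counts scaled to library size and composition) in the control, 123 were under 1 CPM there, against 0 to 10 in every other library. Results that rest on it are given with and without it. Whether the 9 genes belong to the enveloping layer was not tested. The presence of the layer in the controls was read from 16 keratins. Of these krt4, krt8 and krt18a.1 stood at 1895, 776 and 2347 CPM in the control, and krt15, krt93 and krt94 were at 0 in both controls. Of 8 genes that mark tissues of later stages, 5 were at 0 in both controls (hbae1.1, myl7, mylpfa, myod1 and gata1a), and elavl3, hbbe1.1 and neurog1 stood at 11.3, 0.301 and 0.151 CPM. In RNA of whole embryos, fewer cells of a type and less RNA per cell cannot be told apart, and the cells that hold each of the 9 mRNAs were not observed.

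All 9 genes were detected in both controls. On the TPM scale, which divides by transcript length, grhl3 was the highest at 308 ± 36.5 TPM (SD, n = 2). It was followed by b3gnt5a at 79.3 ± 3.99, hsd17b14 at 70.1 ± 11, znf185 at 56.8 ± 6.11, tmem154 at 43.7 ± 3.20, cyp2x6 at 39.1 ± 14.7, add3b at 23.2 ± 9.09, evpla at 17.7 ± 0.0141 and znf750 at 2.37 ± 0.962 TPM. With 2 libraries, neighbours from b3gnt5a to znf185 and from tmem154 to evpla lay within their summed SDs of each other. In 8 of the 9, grhl3 being the exception, all 16 cocktail libraries were below both controls. Over all 14514 genes tested, 12.3% showed that pattern. The mean over the cocktail libraries was at least 10-fold below the control mean for 5 of the 9, against 0.469% of all genes. The rule chose the genes on this contrast, so these shares say nothing further about them. The smallest difference of the 9 was that of grhl3, 1.51-fold lower, and the next smallest that of hsd17b14, 8.37-fold lower.

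**Figure D1:**
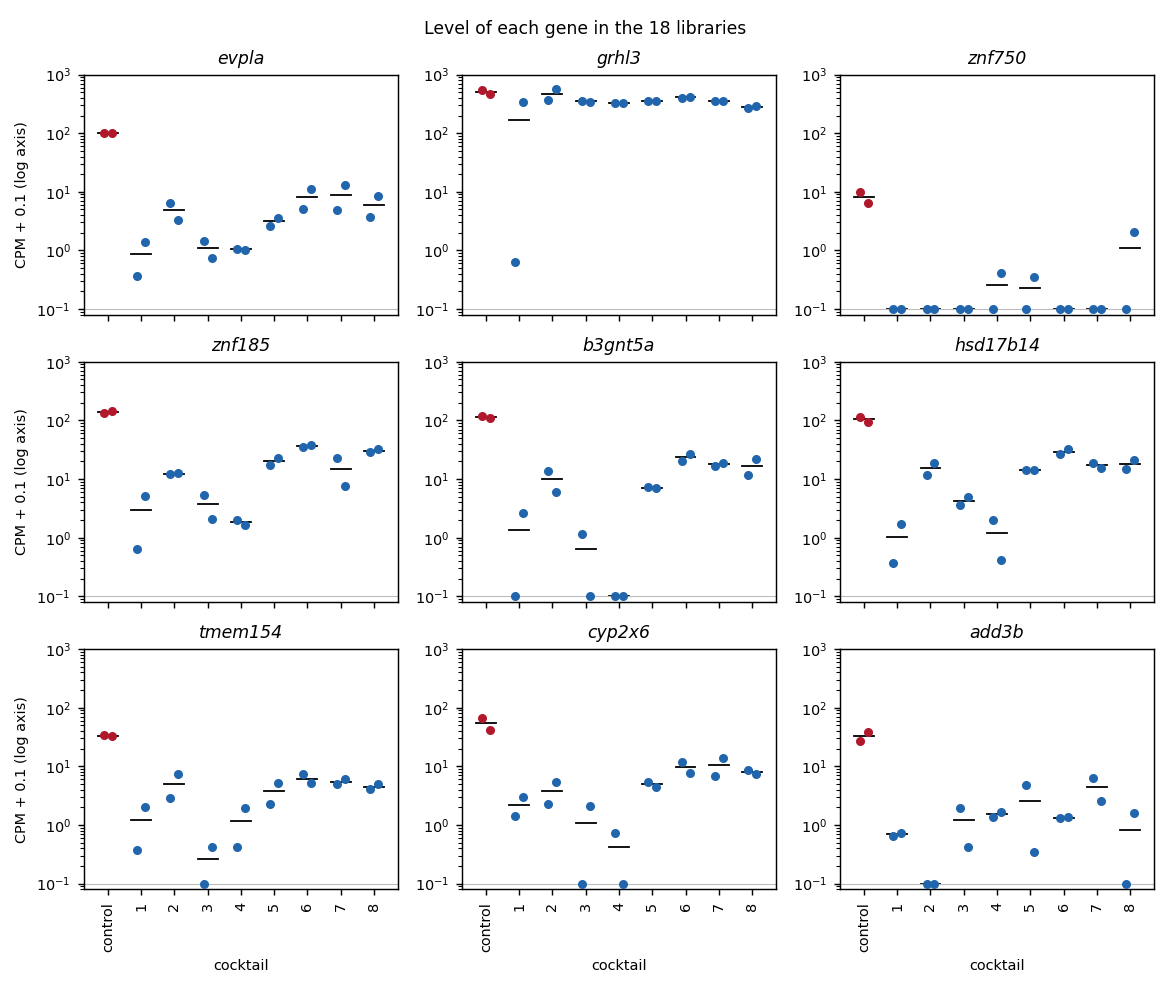
Level of each of the 9 genes in the 18 libraries, as CPM plus 0.1 on a log axis (points, replicate 1 on the left; bars, mean of 2; the grey line marks 0 counts). In every panel but that of grhl3 the 16 cocktail libraries (blue) sit below both controls (red), and Cocktails 1, 3 and 4 sit low for znf185, b3gnt5a and hsd17b14.

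The plakin evpla encodes envoplakin, which in mammals ties keratin filaments to desmosomes and to the cornified envelope of the skin. It stood at 99.99 and 100.01 CPM in the controls. In replicates 1 and 2 it was at 0.270 and 1.28 CPM in Cocktail 1, 6.42 and 3.26 in Cocktail 2, 1.33 and 0.656 in Cocktail 3, and 0.965 and 0.929 in Cocktail 4. It was at 2.52 and 3.54 CPM in Cocktail 5, 5.09 and 11 in Cocktail 6, 4.84 and 12.7 in Cocktail 7, and 3.56 and 8.34 in Cocktail 8. The highest cocktail library was thus 7.85-fold under the lower control, and Cocktails 1, 3 and 4 overlapped each other at the bottom and did not overlap Cocktail 5, the next above them. The mean over the cocktails was 4.17 ± 3.76 CPM (SD, n = 16), 24-fold below the control.

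The other gene of a scaffold protein, add3b, encodes an adducin, a protein that caps actin filaments and joins them to spectrin under the membrane. Its controls were at 27.2 and 38.6 CPM and its cocktail libraries at 0 to 6.33, median 1.22. Both libraries of Cocktail 2 had 0 counts, which with a floor of 3 counts over the 2 libraries places it at least 69.4-fold under the control. The highest values were 6.33 CPM in Cocktail 7 replicate 1 and 4.72 in Cocktail 5 replicate 1, but the second libraries of those cocktails held 2.48 and 0.253, so that the spread within a cocktail covered most of the range. The ratio of the mean levels was 22.

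Of the transcription factors, grhl3 is the grainyhead-like factor that acts in the surface epithelium of fish and mammals. Of the 9 its cocktail mean was the closest to the control, at 66.4% of it. The controls were at 555 and 460 CPM. The cocktail libraries were at 339 CPM in Cocktail 1 replicate 2, 361 and 563 in Cocktail 2, 356 and 339 in Cocktail 3, 321 and 328 in Cocktail 4, 353 and 347 in Cocktail 5, 402 and 419 in Cocktail 6, 348 and 351 in Cocktail 7, and 269 and 296 in Cocktail 8. One library was at 0.540 CPM, with 2 counts, namely Cocktail 1 replicate 1, where its partner had 1061. Cocktail 2 replicate 2 was above both controls, so the groups overlap, but the other 15 cocktail libraries were below both. The mean was 337 ± 111 CPM (SD, n = 16), and 359 ± 66.8 (n = 15) without Cocktail 1 replicate 1, or 70.8% of the control.

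The zinc finger factor znf750, which in human keratinocytes switches on late differentiation, was the scarcest of the 9. It had 42 and 21 counts in the controls (9.68 and 6.33 CPM) and 10 counts in all 16 cocktail libraries together. In 13 of those libraries the count was 0. Of the 10 counts, 8 lay in Cocktail 8 replicate 2 (1.96 CPM), and 1 each in Cocktail 4 replicate 2 and Cocktail 5 replicate 2. At this depth the 5 cocktails at 0 were at least 15.7- to 18.2-fold under the control, again with a floor of 3 counts over 2 libraries. Without the control libraries znf750 would not have passed the filter on low counts, which the other 8 did.

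The gene znf185 encodes a LIM-domain protein that in human cells binds actin and rises as keratinocytes differentiate. The controls were at 132 and 146 CPM. Levels in replicates 1 and 2 were 0.540 and 5.12 CPM in Cocktail 1, 11.9 and 12.4 in Cocktail 2, 5.33 and 1.97 in Cocktail 3, and 1.93 and 1.55 in Cocktail 4. They were 17 and 22.8 CPM in Cocktail 5, 35.6 and 38.2 in Cocktail 6, 22.4 and 7.45 in Cocktail 7, and 28.9 and 32.1 in Cocktail 8. Cocktail 6 was the highest and Cocktail 8 the second, with no overlap between them or with the next, and Cocktails 1, 3 and 4 were all under 6 CPM. The mean of the cocktails was 9.09-fold below the control.

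Among the enzymes, b3gnt5a encodes a glycosyltransferase that starts the lacto series of glycolipids on ceramide. Its controls were at 117 and 111 CPM. In replicates 1 and 2 it was at 0 and 2.56 CPM in Cocktail 1, 13.8 and 5.88 in Cocktail 2, 1.07 and 0 in Cocktail 3, and 0 in both libraries of Cocktail 4. It was at 7.24 and 6.83 CPM in Cocktail 5, 20.3 and 26.6 in Cocktail 6, 16.4 and 18.9 in Cocktail 7, and 11.5 and 21.8 in Cocktail 8. Cocktails 6, 7 and 8 were high, Cocktails 1, 3 and 4 were near or at 0, and Cocktail 4 was at least 241-fold under the control, with a floor of 3 counts over its 2 libraries.

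The hydroxysteroid dehydrogenase gene hsd17b14, whose human enzyme oxidises sex steroids, had 115 and 94.3 CPM in the controls. Replicates 1 and 2 had 0.270 and 1.60 CPM in Cocktail 1, 11.6 and 18.6 in Cocktail 2, 3.46 and 4.92 in Cocktail 3, and 1.93 and 0.310 in Cocktail 4. They had 14.2 in both libraries of Cocktail 5, 26.9 and 32 in Cocktail 6, 19 and 15.2 in Cocktail 7, and 14.6 and 21.1 in Cocktail 8. The replicates of Cocktail 5 were nearly equal, both libraries of Cocktail 6 exceeded every other cocktail library, and Cocktails 1 and 4 did not reach 2 CPM.

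The cytochrome P450 gene cyp2x6 was at 66.3 and 41.6 CPM in the controls. It was at 1.35 and 2.88 CPM in Cocktail 1, 2.14 and 5.22 in Cocktail 2, 0 and 1.97 in Cocktail 3, and 0.643 and 0 in Cocktail 4. Cocktail 5 had 5.35 and 4.30 CPM, Cocktail 6 had 11.7 and 7.52, Cocktail 7 had 6.71 and 14, and Cocktail 8 had 8.70 and 7.36. Cocktails 6, 7 and 8 were again above the rest, with their ranges overlapping. The membrane protein gene tmem154 stood at 33.9 and 32.8 CPM in the controls and at 0 to 7.18 CPM in the cocktails, with a median of 3.35. Its lowest cocktail was Cocktail 3, with 1 count in 2 libraries, which makes the control 203-fold higher with a 95% interval of 40.8 to 8977 that covers counting error only.

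The contrasts among the 8 cocktails do not involve the control, although the filter and the estimate of spread used all 18 libraries. The genes were picked for low levels in cocktails against the control. Earlier results of these data were known by then, so the choice may not be independent of these differences. An F test over the 8 cocktails (edgeR, quasi-likelihood, 14514 genes) called 5 of the 9 genes at an adjusted p under 0.05, against 2.46% of all genes. The adjusted p was 1.66e-05 for hsd17b14, 0.000124 for b3gnt5a, 0.000142 for znf185, 0.0099 for evpla and 0.0183 for cyp2x6. Those 3 first genes ranked 29th, 44th and 47th of the 14514 by p. The test was not passed by tmem154 at 0.0558, add3b at 0.270, znf750 at 0.531 and grhl3 at 0.990, which does not show that their levels are alike, as most of these have few counts. For grhl3 the result depended on the setting. With no filter on low counts and all 18 libraries it was called at 2.37e-05, in a fit that called 1577 genes. The gene znf750 entered the test only through its counts in the control, and with 10 counts in all cocktail libraries its result cannot decide. Without Cocktail 1 replicate 1, 6 of the 9 were called (tmem154 at 0.0286 in addition) against 5.57% of all genes, and grhl3 was at 0.158. Without Cocktail 1 replicate 2, so that the library with 2 counts stood for its cocktail, grhl3 was at 3.29e-11, against 11% of all genes called. The call of cyp2x6 was lost without Cocktail 4 replicate 2, at 0.0553, and that of evpla in limma on log2(TPM + 1), at 0.594. DESeq2 called 6 of the 9 (7.48% of all genes) and limma 5 (1.35%). On the cocktail libraries alone, where znf750 did not pass the filter, edgeR called 3 of 8 (1.42%), without evpla and cyp2x6 at 0.0923 and 0.0887.

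Each cocktail was then set against the mean of the 7 others, which gave 72 pairs of a gene and a cocktail. The pairs of znf750 are among them, although it passed the filter only through the control. Lower levels were called in 4 pairs (adjusted p under 0.05, 2-fold or more), and such calls made up 0.13% of all pairs over all genes. Of all genes, 0.241% were lower in Cocktail 1 and 0.186% in Cocktail 4. The enzyme hsd17b14 was lower in Cocktail 1 by a log2 change of -3.42 ± 0.55 (SE, adjusted p = 0.00254) and in Cocktail 4 by -3.07 ± 0.54 (0.00651). The gene znf185 was lower in Cocktail 4, at -2.79 ± 0.57 (0.0344). With no read in Cocktail 4, b3gnt5a was there at least 23.1-fold under the mean of the other cocktail libraries (0.0154). Of the 4 calls, 3 were in Cocktail 4. That count is not a like comparison of cocktails, since some contrasts could not be estimated. For b3gnt5a the SE, back-calculated from the log2 change and its F statistic, was 160 in Cocktail 1 and 5541 in Cocktail 3. Its levels there were 1.28 and 0.533 CPM, against 10.7 and 10.8 in the other cocktail libraries. For znf750 the SE was 3943 to 4015 in the 5 cocktails at 0 counts.

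Higher levels than in the other cocktails were found in 9 pairs, against 0.172% of all pairs. Of all genes, 0.241% were higher in Cocktail 6, 0.358% in Cocktail 7 and 0.22% in Cocktail 8. In Cocktail 6 hsd17b14 was higher by 2.29 ± 0.29 log2 units (adjusted p = 0.000363), b3gnt5a by 3.24 ± 0.45 (0.000967) and znf185 by 2.21 ± 0.33 (0.00172). In Cocktail 8 the same 3 genes were higher, hsd17b14 by 1.48 ± 0.32 (0.0380), b3gnt5a by 2.70 ± 0.47 (0.00809) and znf185 by 1.90 ± 0.34 (0.00809). Cocktail 7 had higher b3gnt5a, by 2.77 ± 0.47 (0.00457), hsd17b14, by 1.39 ± 0.32 (0.0439), and evpla, by 1.84 ± 0.41 (0.0366). The log2 changes of b3gnt5a are set against a mean that includes cocktails at or near 0 counts and depend on how those are fitted; its mean level in Cocktail 6 was 23.5 CPM against 7.57 in the other cocktail libraries.

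With 2 libraries a cocktail, each of these 13 calls was lost when 1 library of its own cocktail was left out. For hsd17b14 the call in Cocktail 1 went without the library that stood apart, Cocktail 1 replicate 1 (log2 change -2.59, adjusted p = 0.133), that in Cocktail 4 without Cocktail 4 replicate 2 (-2.28, 0.438) and that in Cocktail 6 without Cocktail 6 replicate 2 (2.16, 0.0570). For b3gnt5a the calls in Cocktails 6 and 8 went without the second replicate of each (0.0934 and 0.251) and that in Cocktail 7 without either replicate (0.0764 and 0.145). Its call in Cocktail 4 went without either replicate of that cocktail (0.442 and 0.381) and without Cocktail 1 replicate 2 or Cocktail 3 replicate 1, after which a second cocktail was left at 0 counts. For znf185 the calls in Cocktails 6 and 8 went without either replicate of the cocktail, at 0.0877 to 0.177. The calls of znf185 in Cocktail 4, and of hsd17b14 in Cocktails 7 and 8, were each lost in 11 of the 18 fits that leave out 1 library, at 0.0501 to 0.750, 0.0596 to 0.360 and 0.0535 to 0.382, and that of evpla in Cocktail 7 in 7 of them, at 0.0531 to 0.719. The direction was the same in all 18 fits for all 13.

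**Figure D2:**
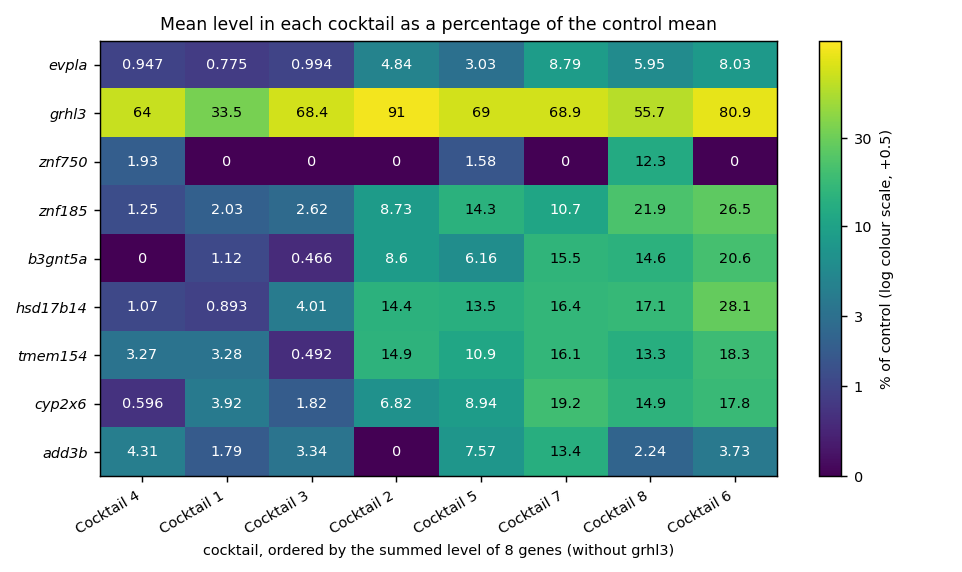
Mean level of each gene in each cocktail (2 libraries) as a percentage of the control mean, with the cocktails ordered from the lowest to the highest summed level of 8 genes. In the 3 columns on the left evpla, znf185, b3gnt5a, hsd17b14, tmem154, cyp2x6 and add3b are at 0 to 4.31% of the control. The level of grhl3 is 33.5% in Cocktail 1, a mean that includes the 2 counts of replicate 1, and 55.7% or more in the other columns. The highest percentage of znf185, b3gnt5a, hsd17b14 and tmem154 lies in Cocktail 6.

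The 8 genes other than grhl3 were summed in each library; grhl3 was left out after its values were seen, so the order that follows carries no test. The sum was 571 to 601 CPM in the controls. It was lowest in Cocktail 4, at 7.08 and 6.50 CPM, then Cocktail 1 at 3.24 and 16 and Cocktail 3 at 13.1 and 10.17, and these 3 neighbours overlapped. Cocktail 2 at 48.6 and 52.6, Cocktail 5 at 53.2 and 57.2, Cocktail 7 at 80.5 and 76.7, Cocktail 8 at 71.2 and 99.1 and Cocktail 6 at 108 and 122 followed. Of those, Cocktails 7 and 8 overlapped and the other neighbours did not. The means spanned 1.16% of the control in Cocktail 4 to 19.6% in Cocktail 6.

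Markers of other cells of the embryo were measured beside these. In the mean of all cocktails against the control (edgeR), 13.6% of all genes were lower and 15.1% higher. Of 8 tested yolk syncytial layer genes 6 fell, of 12 deep cell genes 6 fell, and of 13 oocyte and germ plasm genes 9 rose. These counts were 6, 5 and 8 in DESeq2 and 4, 4 and 9 in limma. The first 2 moved both up and down when 1 library was left out. The calls of hnf4a and gsc were lost without either control library, and that of ved in 13 of the 16 fits without 1 cocktail library. The summed level of 10 yolk syncytial layer genes was 1253 to 1296 CPM in the controls and 5.13 to 912 in the cocktails, or from 374 without Cocktail 1 replicate 1. Of its defining markers apoa1b was at 0 in both controls. Another gene in that sum, mxtx2, went the other way, from 237 CPM in the control to 350 ± 167 in the cocktails (SD, n = 16). Its log2 change was 0.50 ± 1.00 (SE, adjusted p = 0.754). Without Cocktail 1 replicate 1 it was 0.61 ± 0.19, and mxtx2 passed the threshold as higher. The sum therefore understates the fall of the genes called lower. The 12 deep cell genes summed to 3096 to 3107 CPM in the controls and to 16.2 to 1390 in the cocktails, or from 591 without that library. The 13 oocyte and germ plasm genes summed to 1877 to 1921 CPM in the controls and to 3037 to 6163 in the cocktails, or up to 5210 without Cocktail 1 replicate 1. In Cocktail 4, at the low end of the order, the deep cell sum was 591 and 593 CPM and the oocyte sum 4479 and 4642. In Cocktail 6, at the high end, they were 1239 and 1233, and 3382 and 3346. The share of unmapped reads was 35.99% and 28.9% in Cocktail 4 and 21.6% and 21.7% in Cocktail 6, but its highest value, 47.3%, was in Cocktail 8 replicate 1. The part of these cell types and of the unmapped reads in the levels of the 9 genes was not tested.

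**Figure D3:**
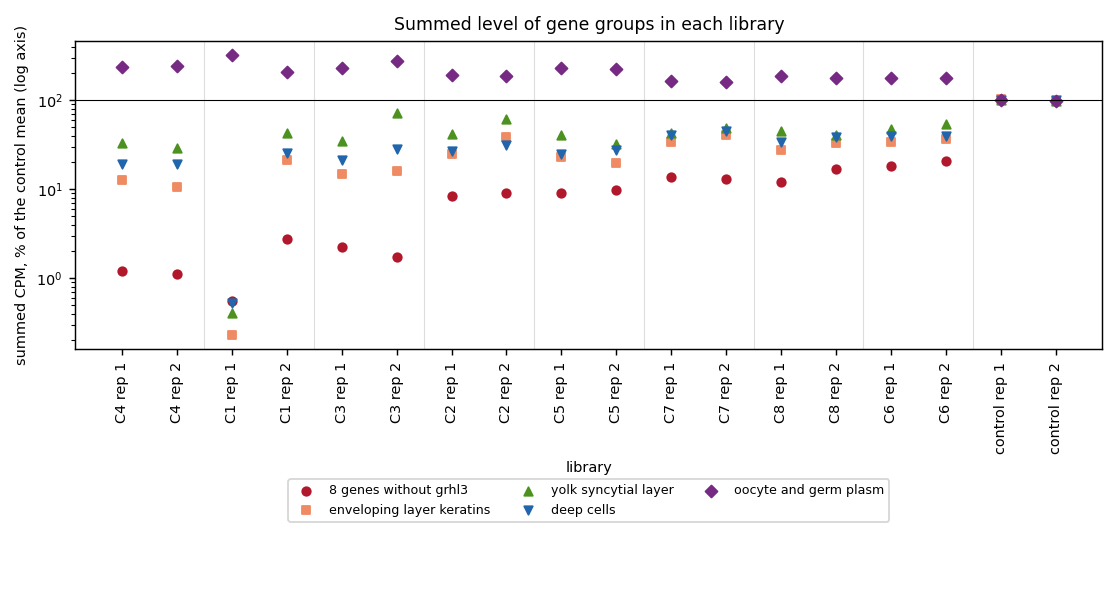
Summed CPM of 5 gene groups in each library as a percentage of the control mean, on a log axis, with cocktails ordered as in the order of summed levels. The 8 genes (red circles) lie below the enveloping layer keratins, yolk syncytial layer genes and deep cell genes in every cocktail library except Cocktail 1 replicate 1, where they are level with or above those 3 groups, and oocyte genes (purple) lie above 100% in all 16. The 8 genes were picked for low levels in cocktails, and grhl3 was left out after its values were seen. Their place below the other groups therefore follows from the choice and carries no test.

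Other genes of the layer's biology were taken from lists and tested in the mean of all cocktails against the control, in which 13.6% of all genes were lower and 15.1% higher, with a median log2 change of 0.03. The lists share their controls with the 9 genes. Of 16 keratins 9 had enough counts, and 8 fell, with a median of -4.08 over the 9. The type II keratin krt5 fell from 418 to 19.7 ± 16.6 CPM (SD, n = 16; log2 change -4.92 ± 0.29 SE, adjusted p = 6.51e-08). The others with large changes were krt17 at 20.7-fold lower mean CPM, which had 0 counts in 1 cocktail, cyt1 at -4.57 ± 0.39 (4.41e-08) and krt97 at -4.35 ± 0.28 (1.17e-08). The most abundant keratin, krt18a.1, went from 2347 to 818 CPM and missed the threshold at 0.241, but passed it at 3.15e-10 without Cocktail 1 replicate 1. Higher keratins numbered 0 in edgeR, at an adjusted and at an unadjusted p under 0.05, and 0 in DESeq2 and limma. The calls of krt4 and krt8 were lost when either control library was left out, at 0.112 or more for both genes, and in limma, at 0.197 and 0.0678. The call of krt4 was also lost in DESeq2 (0.0597) and in 13 of the 16 fits without 1 cocktail library (0.0523 to 0.0641).

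Of 14 transcription factors of the surface epithelium with enough counts, 4 fell, with a list median of -1.01. The Ets factor elf3 was 18.3-fold lower in mean CPM, with 0 counts in 4 cocktails, and its call was lost in DESeq2 at 0.427. At 0.274 CPM in the cocktails elf3 passed the filter on low counts only through the control, and it is among the 4. The activator protein 2 factor tfap2c fell by 2.95 ± 0.43 on the log2 scale (2.72e-05). The grainyhead relatives grhl1 and grhl2a fell by 2.11 ± 0.46 (0.00263) and 1.16 ± 0.23 (0.000751). The fitted log2 change of grhl3 was -0.64 ± 0.88, and -1.67 without Cocktail 1 replicate 2, and the difference between these genes was not tested. The call of grhl1 was lost without control replicate 2, at 0.0685. The Krüppel-like factor klf17, at 365 and 238 CPM, missed the threshold at 0.574. Without Cocktail 1 replicate 1, which leaves 1 library in that cocktail, more of the factors fell. Among them were klf17 (log2 change -0.55), gata3 (-0.89) and ovol1a (-1.02). The number of lower genes over all genes also moved when 1 library was left out, so the 13.6% is not the share for that fit. Higher factors numbered 0 in edgeR at an adjusted and at an unadjusted p, and 0 in DESeq2 and limma.

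Partners of the plakin evpla formed the next list. Of 13 tested genes of plakins and the desmosome, the junction that anchors keratin filaments, 7 fell, and the list median was -1.95. They were the plakophilin pkp3a at -3.07 ± 0.33 (8.81e-07), the desmoplakin dspa at -2.96 ± 0.36 (3.56e-06), the desmosomal cadherins dsc2l at -2.45 ± 0.38 (5.45e-05) and dsg2.1 at -2.09 ± 0.38 (0.00026), the plectin pleca at -2.28 ± 0.62 (0.00775), the periplakin ppl at -2.12 ± 0.18 (4.11e-08), and the plakoglobin jupa at -0.995 ± 0.165 (0.00012). The call of pleca was lost without either control library, at 0.0539 and 0.130. Periplakin, which pairs with envoplakin in mammals, went from 152 to 36.8 ± 12.7 CPM, 4.13-fold lower, beside the 24-fold of evpla. As evpla was picked for its fall, this contrast follows in part from the choice and was not tested. Higher genes numbered 0 in edgeR, with pkp2 at an unadjusted p under 0.05 and called in DESeq2 (0.0389).

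Tight junction genes were mixed, with 4 of 16 lower, 1 higher and a median of -0.37. The claudin cldnf fell by 2.29 ± 0.37 on the log2 scale (0.000185), the occludin oclna by 0.92 ± 0.12 (6.86e-06), and the scaffold tjp3 by 0.88 ± 0.18 (0.000804), the last lost at 0.0826 without control replicate 1. The scaffold tjp1a, at -0.51 ± 0.19 (0.0492), lost its call in limma (0.806), with the replicate number as a block (0.0588), with no filter (0.0602), without either control library (0.231 and 0.263) and in 12 of the 16 fits without 1 cocktail library. The claudin cldnd rose from 396 to 1110 ± 444 CPM, by 1.43 ± 0.23 (8.86e-05). The abundant claudin cldne missed the threshold at 0.371. It passed without Cocktail 1 replicate 1, at a log2 change of -1.03, a fit in which more of the list fell and whose share of all genes is not given here. Of 11 epithelial surface genes 7 fell, with a median of -0.73. The annexin anxa1c was 33.3-fold lower in mean CPM and at 0 counts in 6 cocktails. At 0.191 CPM in the cocktails it passed the filter on low counts only through the control, and it is among the 7. Log2 changes were -2.91 ± 0.81 for anxa1b (0.00977), -2.01 ± 0.63 for the surface protein gene lye (0.0394) and -0.74 ± 0.14 for the protease inhibitor spint1a (0.00053). The adhesion genes cdh1 and epcam fell by 0.73 ± 0.13 (0.000299) and 0.45 ± 0.14 (0.0215). Of these 7 calls, 3 held without control replicate 1 and 2 without control replicate 2. The call of lye was lost in both of those fits, in DESeq2 (0.0505) and in 13 of the 16 fits without 1 cocktail library (0.0503 to 0.0679), and that of epcam in both and in limma (0.107). Higher surface genes numbered 0 in edgeR at an adjusted and at an unadjusted p, and 0 in DESeq2 and limma.

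Paralogs of the 9 genes moved in both directions: of 15 tested, 5 were lower and 4 higher, with a median of 0.34. The dehydrogenase hsd17b12b rose from 17.8 to 83.2 ± 11.1 CPM (2.22 ± 0.20, 1.23e-07), whereas hsd17b12a fell from 804 to 261 ± 41.8 (-1.63 ± 0.13, 1.73e-08). The glycosyltransferase b3gnt5b rose from 23.7 to 55.6 ± 15 CPM (1.19 ± 0.25, 0.00105), the opposite direction to its copy b3gnt5a, which was 12-fold lower. The adducin add3a stood at 113 CPM in the control and 102 ± 12.2 in the cocktails (-0.16 ± 0.16, 0.483), beside the 22-fold of add3b. Both b3gnt5a and add3b were picked for their falls in the cocktails and their copies were not. These contrasts follow in part from that choice and were not tested. The P450 gene cyp2x7 stood at 9.29 and 17.3 ± 6.36 CPM (0.109). The second envoplakin, evplb, had too few counts, at 0.797 CPM in the control. How the authors' counting treated reads that fit both copies of a pair is not given, so values of close paralogs carry that uncertainty.

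The same lists were read for differences among the 8 cocktails, where 2.46% of all genes were called. The keratins had 2 of 9 called, krt5 (0.0179) and cyt1 (0.00493), and the plakins and desmosome genes 2 of 13, pkp3a (0.0263) and ppl (0.0304). The tight junction list had cldnf (0.0419) and the epithelial surface list cdh1 (0.0378). The transcription factors had 0 of 14 in edgeR, also 0 at an unadjusted p and 0 in DESeq2 and limma, with grhl3 itself not called. Of 8 yolk syncytial layer genes 3 were called, with gata6 at 0.000141, and of 13 oocyte and germ plasm genes 3, with h1m at 2.87e-05. The deep cell list had 0 of 12 in edgeR, 2 at an unadjusted p under 0.05, 0 in DESeq2 and 1 in limma. In limma the counts were 2 keratins, 1 tight junction gene, 3 yolk syncytial layer genes and 1 oocyte gene, and 0 plakin and desmosome and 0 epithelial surface genes, so that pkp3a, ppl and cdh1 were not called there. In DESeq2 they were 4 keratins, 4 plakin and desmosome genes, 2 tight junction genes, 2 epithelial surface genes, 4 yolk syncytial layer genes and 4 oocyte genes.

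Over the 16 cocktail libraries, log2 CPM of evpla, znf185, b3gnt5a, hsd17b14, tmem154 and cyp2x6 varied together. Their 15 pairwise Pearson correlations were 0.74 to 0.94, with a median of 0.81, and 0.70 to 0.93 in the 15 libraries without Cocktail 1 replicate 1. The closest pair was evpla and b3gnt5a (r = 0.94, and 0.93 without that library), followed by b3gnt5a and znf185 (0.92 and 0.91). Correlations with grhl3 were 0.06 to 0.53, and -0.34 to 0.31 without Cocktail 1 replicate 1, when the closest were tmem154 and hsd17b14, both at 0.31. Pairs with znf750 or add3b other than with grhl3 gave -0.00428 to 0.229, at counts of 0 to 17 per cocktail library, where little can be seen. The libraries share the levels of the cocktails, 2 replicates each, so these values describe the libraries and carry no test.

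**Figure D4:**
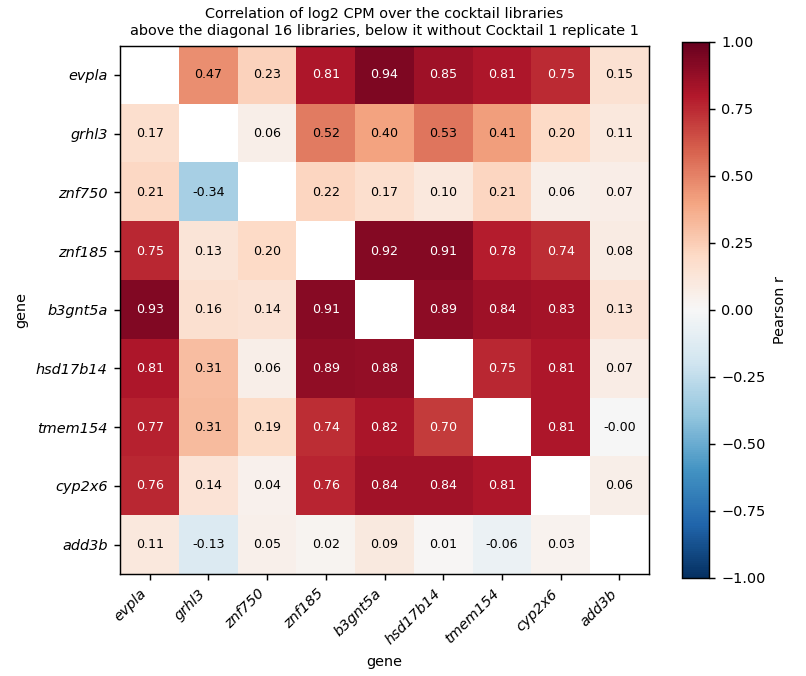
Pearson correlation of log2 CPM between each pair of the 9 genes over the cocktail libraries, 16 libraries above the diagonal and 15, without Cocktail 1 replicate 1, below it. A block of 6 genes stands at 0.70 or more on both sides, while the rows of grhl3, znf750 and add3b are paler, and those of grhl3 pale further below the diagonal.

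The genes whose pattern over the 16 cocktail libraries was most like the mean standardised level of the 9 were sought among 11148 genes with at least 5 CPM in the control. The 10 most alike were notum1a, a secreted Wnt inhibitor (r = 0.956), sec61a1, a subunit of the translocon of the endoplasmic reticulum (0.954), ptbp1a, a splicing regulator (0.946), the keratin krt92 (0.944), the ceramide synthase cers2b (0.943), eps8l1b (0.942), the P450 gene cyp2aa8 (0.939), krt5 (0.939), znf1066 (0.938) and GFUS, a fucose synthesis enzyme (0.937). Without Cocktail 1 replicate 1, 3 of these 10 remained among the 10 most alike, namely krt92, sec61a1 and ptbp1a, and the mesodermal factor tbx16 led at 0.958. The splicing regulator ptbp1a fell from 284 to 52.2 ± 26.9 CPM against the control (-2.69 ± 0.17, 1.43e-09) and differed among the cocktails (3.59e-05). The translocon gene sec61a1 had a like order of libraries at a far smaller range, 208 to 382 CPM in the cocktails against 452 in the control.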

How the data were processed

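Total RNA of whole embryos was made into Nextera XT libraries, per the labels' protocols. Strand is not marked by such a kit, and overlapping or antisense genes therefore share reads. The authors deposited whole-number read counts per gene and a second table of TPM values, a unit inferred from the values. The submitters' processing notes name the build danRer11 and bcl2fastq 2.20. Aligner, counter and annotation: not given in the sources used here. No sequences or coordinates are printed, since no genome of that build was used here.

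Rows that name no gene, 4 per library, held 22.6% to 55.5% of its reads and were left out. The members and gene lists were chosen with earlier results of these data known. The rule for naming genes took the 9 members, up to 4 called genes of each list by size of change and then those of highest control level, and the 10 genes most like the members. The result of 1 listed gene is not reported here.

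Counts were scaled by TMM and fitted with edgeR 4.0.16 (R 4.3.3; quasi-likelihood, robust, minimum count 10, 14514 of 32520 genes kept), with 1 coefficient per group over 18 libraries (biological coefficient of variation 0.280). Benjamini-Hochberg adjustment ran over all genes. Each SE printed with an edgeR log2 change was back-calculated as the absolute change over the square root of its F statistic. It is not a fitted standard error and is unreliable where counts are at or near 0. The contrasts were an F test among the 8 cocktails (adjusted p under 0.05), each cocktail against the mean of the 7 others (also at least 2-fold), and the mean of the cocktails against the control (no fold minimum). CPM are counts over TMM-scaled library sizes, and a count of 0 was given a floor of 3 counts over a group. Intervals and floors cover counting error only, as reads carry no molecular identifiers. Correlations used log2 CPM with a prior count of 2.

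The other settings tried were RLE size factors, DESeq2 1.42.0, no filter on low counts, the replicate number as a block, limma 3.58.1 on log2(TPM + 1), a scale that understates changes of low genes (those reaching 1 TPM in 2 libraries), cocktail libraries only, no fold minimum, the ratio of mean CPM with no model, and each library left out in turn. Tested on simulated counts, edgeR called 78% of genes lowered by 2 log2 units in Cocktail 4 against the other cocktails and 18% of those lowered by 1, with 5 unchanged genes of 14000 called. In the F test among cocktails, with 1 cocktail changed, 50% and 8% were called, as were 9 unchanged genes of 14000. The changed genes were drawn at random from those with a mean of at least 2 CPM, and no library was made to stand apart. These shares are therefore not those for the 9 genes, most of which are scarce in the cocktails.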

Additional observations from a re-analysis of the deposited data

Results flagged for a closer look

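In 5 of the 9 genes, against 2.46% of all genes, the change against the shared control differed from cocktail to cocktail, by the F test among the 8 cocktails in edgeR. The adjusted p was 1.66e-05 for hsd17b14, with cocktail means of 0.893% to 28.1% of the control, and 0.000124 for b3gnt5a, from 0 counts to 20.6% of the control. It was 0.000142 for znf185, from 1.25% to 26.5%, 0.0099 for evpla, from 0.775% to 8.79%, and 0.0183 for cyp2x6, from 0.596% to 19.2%. The lowest means of hsd17b14 and evpla were those of Cocktail 1, which include replicate 1. The lowest of the other cocktails were 1.07% and 0.947%, in Cocktail 4. On the cocktail libraries alone edgeR called 3 of the 8 that passed the filter, which znf750 did not, against 1.42% of all genes. Of the 5 genes, evpla (0.0923) and cyp2x6 (0.0887) were not called there. In limma evpla was not called (0.594).

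Outside the counts per gene, the reads that mapped nowhere made up 29.7% of the reads in the cocktail libraries on average, above both controls (10.1% and 10.8%) in 16 of 16 libraries. Their content was not analysed here.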

How the results depend on the processing

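Most of the dependence on processing lies in counts of calls. With the main settings, 357 genes and 5 of the 9 differed among the cocktails. The gene count was 1085 in DESeq2, 203 with cocktail libraries only and 1577 with no filter. With cocktail libraries only, 3 of the 8 members that passed the filter were called. With no filter 8 of the 9 were called, among them grhl3, at 2.37e-05 in place of 0.990. Lower pairs of a gene and a cocktail numbered 151 (348 in DESeq2, 266 in limma, 728 with no filter) and higher pairs 200 (124 with cocktail libraries only, 126 in limma, 856 with no filter, 302 with no fold minimum). Among the 9 genes the 4 lower pairs became 7 in DESeq2 and 10 with no filter, and the 9 higher pairs 2 in limma and 17 with no filter. Against the control, 1209 genes were lower in limma in place of 1970; with no filter 9 transcription factors and 7 tight junction genes were lower, in limma 2 of the latter; and 1 plakin or desmosome gene, pkp2, was higher in DESeq2, with no filter and with the block. Results reversed under 0 of the settings run.

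Leaving out 1 library at a time gave 178 to 1714 genes that differ among cocktails and 4 to 7 of the 9, 110 to 1026 lower and 116 to 2050 higher pairs, and 1 to 6 lower and 4 to 25 higher pairs of the 9. The highest of these counts came without Cocktail 1 replicate 2 (1714, 1026, 2050 and 25), and the fewest lower pairs of the 9, 1, without Cocktail 4 replicate 2. Genes lower than in the control numbered 876 to 2668 and higher ones 1009 to 2489. Lower keratins numbered 6 to 10, transcription factors 3 to 9 (higher 0 to 1), plakin and desmosome genes 6 to 8 (higher 0 to 1), tight junction genes 2 to 9, surface genes 2 to 8, and paralogs 3 to 5 (higher 2 to 5). Without Cocktail 1 replicate 1 or 2, more transcription factors and tight junction genes were lower than with the main settings. The share of all genes in those fits is not given here, so this is not a result about the lists. Without control replicate 1 or 2, lower surface genes numbered 3 and 2. The cause was not tested.

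With the replicate number as a block, 300 genes and 6 of the 9 differed among the cocktails, and 3 of the 13 pairs of the 9 lost their call: znf185 in Cocktail 4 (0.0522) and hsd17b14 in Cocktails 7 and 8 (0.0564 and 0.0559). The numbers do not pair the libraries: over 36 pairs of groups the correlation of same-numbered deviations was -0.124 to 0.125, with 1 over 0.1.

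Depth limits the scarce genes. Over the 16 cocktail libraries znf750 had 10 counts, and its differences among cocktails were not detectable at this depth (adjusted p 0.369 to 0.993 over the settings other than leaving out a library). With 76 counts, add3b was called with no filter only, at 0.00745, and stood at 0.0526 in DESeq2.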
